A study of Homo sapiens with 12 samples.

Results

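The HOXA and MEIS1 leukemia program is a set of 10 human genes: the homeobox genes HOXA5, HOXA7, HOXA9 and HOXA10, their cofactors MEIS1 and PBX3, the transcription factor MEF2C, and the chromatin regulators KMT2A, MEN1 and DOT1L. They were picked by gene name from the 57353 genes of the count table, of which 30572 had a count in at least 1 library. Of the 10 members, 8 passed the filter on low values and were tested among 12998 genes. HOXA5 and HOXA7 fell below it. RNA came from MOLM-13, a human acute myeloid leukemia (AML) cell line that carries an internal tandem duplication in the receptor tyrosine kinase FLT3 and a KMT2A::MLLT3 gene fusion. The 12 libraries, 3 in each of 4 groups, were made 15 hr after treatment. Cells in regular medium (RPMI) received vehicle (DMSO) or 3 nM quizartinib, a FLT3 inhibitor also named AC220, and cells in conditioned medium of bone marrow stromal cells (hBMSC-CM) received the same. The conditioned medium came from a single stromal line, HS-5, was mixed with RPMI medium, and no stromal cells were in the cultures. All 4 groups are thus 1 leukemia line, and only the hBMSC-CM groups were exposed to factors secreted by stromal cells. The study describes its replicates as biological, but neither the labels nor the methods say whether the libraries of a group came from separate cultures, so p-values measure the spread between these samples.

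KMT2A is a histone H3 lysine 4 methyltransferase, and chromosome breaks that fuse it to partners such as MLLT3 give proteins that hold the later HOXA genes and MEIS1 active in leukemia. Menin, the product of MEN1, tethers KMT2A and its fusions to chromatin, and DOT1L, the histone H3 lysine 79 methyltransferase, is brought to the same genes through the fusion partners. HOXA9 and HOXA10 proteins bind DNA together with the TALE homeodomain cofactors MEIS1 and PBX3, and MEF2C is one of the further genes known to be raised in KMT2A-rearranged leukemia. The comparisons ask how the RNA of these genes responded to FLT3 inhibition, and whether medium conditioned by stromal cells altered that response.

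The start regions of 3 members are shown for some of the outcomes described further on: MEIS1 and PBX3 rose together with quizartinib, while HOXA9 passed no test. No window of a member that fell is shown. Each window is the 250 bases before a RefSeq start site on GRCh38.p14, printed 5′ to 3′ in the direction of the gene, with motif matches in capitals.
MEIS1: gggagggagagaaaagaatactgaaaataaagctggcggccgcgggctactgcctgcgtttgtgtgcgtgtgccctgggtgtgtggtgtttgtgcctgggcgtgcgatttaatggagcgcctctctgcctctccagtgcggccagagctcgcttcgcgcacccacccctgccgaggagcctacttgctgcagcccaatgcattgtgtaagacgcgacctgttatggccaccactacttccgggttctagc
PBX3: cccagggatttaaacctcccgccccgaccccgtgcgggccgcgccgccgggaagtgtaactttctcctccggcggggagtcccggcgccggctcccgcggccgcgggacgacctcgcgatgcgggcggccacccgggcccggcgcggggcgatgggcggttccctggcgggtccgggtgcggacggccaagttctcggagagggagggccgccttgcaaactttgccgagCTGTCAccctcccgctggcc
HOXA9: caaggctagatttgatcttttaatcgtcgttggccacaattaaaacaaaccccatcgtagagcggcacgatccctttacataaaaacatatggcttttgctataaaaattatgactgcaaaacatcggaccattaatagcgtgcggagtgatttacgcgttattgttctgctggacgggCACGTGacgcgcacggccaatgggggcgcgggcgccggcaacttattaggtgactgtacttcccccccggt
The MEIS1 window lies at chr2:66434875-66435124 on the plus strand, the PBX3 window at chr9:125747933-125748182 on the plus strand and the HOXA9 window at chr7:27165538-27165787 on the minus strand. In the GENCODE annotation the MEIS1 and HOXA9 windows held 0 exonic bases and the PBX3 window 18. Both strands were searched for 5 motifs, none of which overlapped another in these windows: the MEIS hexamer TGACAG, the PBX-HOX octamer TGATTNAT, the E-box CACGTG, the FOXO site GTAAACA and the STAT site TTCNNNGAA. Over all 35115 RefSeq promoter windows of the same length these letters occurred in 13.03%, 2.48%, 6.34%, 2.98% and 6.57%, respectively. The PBX3 window held 1 MEIS hexamer on the minus strand, read as CTGTCA, 20 bases before the start, and the HOXA9 window held 1 E-box 71 bases before the start. None of the 5 motifs was in the MEIS1 window. The MEIS hexamer was also in windows of MEF2C and MEN1, members that fell with quizartinib in RPMI. Promoter windows were found for 8 of the 10 members, and those of HOXA5 and DOT1L were missing.

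Libraries held 19966546 to 31546104 counts. Levels are given as CPM, the count of a gene in proportion to the total of its library, after scaling by TMM factors of 0.956 to 1.04. A rise or fall is therefore relative to the other genes of the library. In another experiment the paper reports less RNA from whole lysates of these cells with quizartinib. Changes of RNA per cell were not measured in these libraries. A gene with no read in a library may have had up to 3 counts, or 0.0951 to 0.150 CPM, by counting error alone. All 5 leukemia cell markers (PTPRC, CD33, SPI1, LYZ and FLT3) passed the filter. Their summed level was 902 to 954 CPM in RPMI with vehicle and 1506 to 1542 with quizartinib. It was 1040 to 1077 in hBMSC-CM with vehicle and 1729 to 1886 with quizartinib. The markers did not move alike. In RPMI the mean of CD33 was 92.5 CPM with vehicle and 76.0 with quizartinib, while PTPRC, SPI1, LYZ and FLT3 had higher means with quizartinib. LYZ had a mean of 275 CPM in RPMI with vehicle and 1010 in hBMSC-CM with quizartinib. Of 10 stromal cell markers, COL3A1, LUM, DCN, THY1 and CXCL12 were at 0 in all 12 libraries. The summed level of the 10 was 0.547 to 0.646 CPM in RPMI with vehicle, 4.81 to 5.76 with quizartinib, 0.401 to 0.924 in hBMSC-CM with vehicle and 1.78 to 2.11 with quizartinib, and only COL1A1 among them passed the filter. The mean share of counts from mitochondrial genes was 0.726% in RPMI with vehicle, 1.05% with quizartinib, 0.511% in hBMSC-CM with vehicle and 0.856% with quizartinib, and the part of these differences in the results was not tested. As the libraries are bulk RNA, fewer cells expressing a gene and less RNA per cell cannot be told apart.

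HOXA9, the homeobox gene best known as a driver of this program, did not pass the test in any comparison. It lies on chromosome 7 (27162438 to 27175180, minus strand, GRCh38). In RPMI its 3 libraries held 24.7, 23.5 and 22.9 CPM with vehicle and 23.3, 24.5 and 22.1 CPM with quizartinib. The hBMSC-CM libraries held 24.7, 27.9 and 25.9 CPM with vehicle and 21.2, 26.8 and 25.03 CPM with quizartinib. The groups overlapped in every comparison but the media with vehicle, where the lowest hBMSC-CM library (24.67 CPM) lay just above the highest RPMI library (24.65 CPM). Quizartinib changed HOXA9 by -0.02 ± 0.08 (log2 fold change ± SE) in RPMI, with a 95% interval from -0.18 to 0.14 (adjusted p = 0.802 by the edgeR quasi-likelihood test, Benjamini-Hochberg over all genes tested). Its change in hBMSC-CM was -0.10 ± 0.08, with an interval from -0.26 to 0.05 (edgeR adjusted p = 0.234). The interaction was -0.08 ± 0.11, with an interval from -0.31 to 0.14. By annotated exons, 27.0% of HOXA9 is shared with HOXA10-AS on the opposite strand, a HOXA10 to HOXA9 readthrough gene or MIR196B, and reads from the shared bases cannot be assigned to one of them from the table.

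HOXA10, a neighboring homeobox gene on the same strand (27170605 to 27180261), was slightly lower with quizartinib in both media. Its 3 libraries held 25.4, 24.96 and 25.5 CPM in RPMI with vehicle and 22.2, 21.4 and 24.5 CPM with quizartinib. With hBMSC-CM the levels were 24.8, 25.8 and 22.6 CPM with vehicle and 21.9, 21.3 and 21.0 CPM with quizartinib. The vehicle libraries all lay above the quizartinib libraries of the same medium. The log2 change was -0.16 ± 0.06 in RPMI (edgeR adjusted p = 0.0269) and -0.19 ± 0.07 in hBMSC-CM (edgeR adjusted p = 0.0160), and the difference between the media did not pass the test (interaction -0.03 ± 0.09, with an interval from -0.22 to 0.16, edgeR adjusted p = 0.840). Against RPMI with vehicle, HOXA10 in hBMSC-CM with quizartinib was lower (log2 -0.24 ± 0.06, edgeR adjusted p = 0.00301). The calls within a medium were close to the threshold. In RPMI the call was lost without the quizartinib replicates 1 (-0.14) or 2 (-0.11) or the vehicle replicates 1 (-0.15) or 3 (-0.15), and in hBMSC-CM without quizartinib replicate 3 (-0.17) or the vehicle replicates 1 (-0.17) or 2 (-0.15). Scaling by library size alone gave -0.07 in RPMI and -0.08 in hBMSC-CM, and neither passed the test. HOXA10 shares 26.3% of its exonic bases with HOXA10-AS or the readthrough gene.

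HOXA5 and HOXA7, homeobox genes that are often expressed with HOXA9 in KMT2A-rearranged leukemia, had almost no reads in these libraries. HOXA7 had 1 count in each of 2 libraries, both hBMSC-CM with vehicle, and 0 in the other 10, so no fold was formed. Its pooled floor of 3 counts in RPMI with vehicle is 0.0392 CPM. HOXA5 had 4, 6 and 2 counts in RPMI with vehicle and 2, 0 and 0 with quizartinib. In hBMSC-CM it had 9, 0 and 9 counts with vehicle and 8, 4 and 4 with quizartinib. Summed over the libraries of a group, 12 counts stood against 2 in RPMI, a vehicle to quizartinib ratio of 5.88 with a 95% counting interval of 1.31 to 54.1. The 16 counts of hBMSC-CM with quizartinib stood against the same 2, a ratio of 8.26 (counting interval 1.94 to 74.1). Within hBMSC-CM the quizartinib to vehicle ratio was 0.873 (counting interval 0.417 to 1.81). The intervals cover counting error only, and every HOXA5 statement rests on at most 9 counts in a library. With no filter on low counts the edgeR adjusted p of HOXA5 was 0.0270 for quizartinib in RPMI, 0.00476 for the media with quizartinib and 0.192 for the interaction. HOXA-AS3, which covers 62.5% of the HOXA7 exons on the opposite strand, was at 0 in all libraries.

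The low levels of HOXA5 and HOXA7 extended over neighboring genes of the cluster. From HOXA2 to HOXA7, no gene exceeded 11 counts in any library, while HOXA9, HOXA10, HOXA11 and HOXA13 had means of 10.8 to 26.2 CPM. Of the 15 HOXA genes and noncoding RNAs of the cluster reported here, 6 passed the filter, HOXA9 and HOXA10 included. Among the 4 that are no members, 2 rose and 1 fell with quizartinib in RPMI, where 40.1% of all genes rose and 39.2% fell. HOXA11, a homeobox gene next to HOXA10, fell in both media (log2 -0.79 in RPMI and -0.46 in hBMSC-CM). HOXA11-AS, outside these 15, covers 27.2% of the HOXA11 exons on the opposite strand. The mean of HOXA11-AS was 1.95 CPM in RPMI with vehicle and 3.16 with quizartinib, and 1.25 and 2.85 in hBMSC-CM. HOXA10-AS rose by 0.46 in RPMI and 0.24 in hBMSC-CM, the reverse of HOXA10 on the opposite strand. As the strand setting of the counting is not given in the sources used here, it is not known how reads from the shared bases were counted. HOTAIRM1, a noncoding RNA of the cluster, rose by 1.04 in RPMI from a mean of 0.844 CPM. In the HOXB cluster, listed as a neighboring family that other leukemias express, 9 of 10 genes had 0 counts in all 12 libraries and the tenth had 1 count in total.

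**Figure D1:**
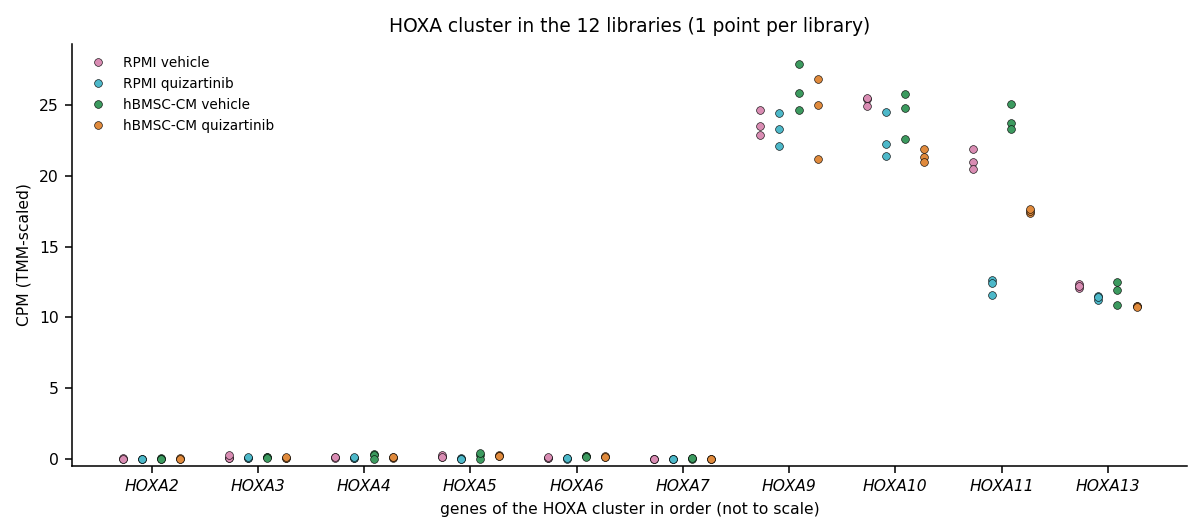
Level of 10 HOXA genes (CPM, linear axis) in the order of the cluster, with 1 point for each of the 12 libraries and colors for the 4 groups. HOXA2 to HOXA7 sit near 0 in all libraries, HOXA9 and HOXA10 between 21 and 28 CPM with little separation of the groups, and the HOXA11 libraries of RPMI with quizartinib (mean 12.2 CPM) below those with vehicle (mean 21.1 CPM).

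MEIS1, a TALE homeodomain protein that binds DNA with HOXA9 and is needed for leukemia in many KMT2A-rearranged models, rose with quizartinib in both media. It lies on chromosome 2 (66433452 to 66573869, plus strand). In RPMI its libraries held 125, 129 and 133 CPM with vehicle and 208, 208 and 211 CPM with quizartinib. Those in hBMSC-CM held 119, 106 and 115 CPM with vehicle and 162, 166 and 163 CPM with quizartinib. All 4 groups stood apart, in the order RPMI with quizartinib, hBMSC-CM with quizartinib, RPMI with vehicle and hBMSC-CM with vehicle. The increase was 1.62-fold in RPMI (log2 0.70 ± 0.04, edgeR adjusted p = 3.01e-12) and 1.44-fold in hBMSC-CM (log2 0.53 ± 0.04, edgeR adjusted p = 1.14e-09). Each step of the order passed the test: hBMSC-CM lay below RPMI both with quizartinib (-0.36 ± 0.04) and with vehicle (-0.19 ± 0.04), and with quizartinib in hBMSC-CM it stayed above vehicle in RPMI (0.34 ± 0.04). The difference between the 2 responses was small (interaction -0.17 ± 0.06, edgeR adjusted p = 0.0286). It did not pass the test without hBMSC-CM quizartinib replicates 1 (-0.16) or 3 (-0.16), hBMSC-CM vehicle replicate 1 (-0.13), or RPMI vehicle replicates 1 (-0.16) or 2 (-0.17), nor with scaling by library size alone (-0.15) or without a filter on low counts (-0.10). Antisense genes cover 13.3% of the MEIS1 exons.

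PBX3, the TALE cofactor that joins MEIS1 and HOXA9 on DNA, rose most clearly in RPMI. It lies on chromosome 9 (125747345 to 125967377, plus strand), and no other annotated gene shares its exons. In RPMI its libraries held 124, 123 and 123 CPM with vehicle and 186, 186 and 185 CPM with quizartinib. The levels in hBMSC-CM were 124, 114 and 115 CPM with vehicle and 133, 136 and 133 CPM with quizartinib. The quizartinib libraries of RPMI stood well above the other 9. The increase was 1.504-fold in RPMI (log2 0.59 ± 0.04, edgeR adjusted p = 1.46e-11) and 1.14-fold in hBMSC-CM (log2 0.19 ± 0.04, edgeR adjusted p = 0.000370). This difference passed the test of the interaction (-0.40 ± 0.06, edgeR adjusted p = 6.59e-06) in every fit that left out 1 library. With quizartinib, the hBMSC-CM level of PBX3 lay below the RPMI level (-0.47 ± 0.04), whereas with vehicle the media did not differ beyond the spread (-0.07 ± 0.04, edgeR adjusted p = 0.204). PBX3 in hBMSC-CM with quizartinib remained slightly above RPMI with vehicle (0.12 ± 0.04, edgeR adjusted p = 0.0146), a call that was lost without the filter on low counts (0.09).

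Of the other TALE cofactors, PBX2, MEIS2 and PKNOX1 passed the filter, and MEIS3, PBX4 and PKNOX2 stayed at or below 22 counts in every library. PBX2, a further partner of HOX and MEIS proteins, rose by 0.60 in RPMI and 0.41 in hBMSC-CM on the log2 scale. MEIS2 did not pass the test in any comparison, with changes of 0.03 in RPMI and 0.04 in hBMSC-CM. PKNOX1, which also pairs with PBX proteins, fell by 0.96 in RPMI and by 0.53 in hBMSC-CM. Together with MEIS1 and PBX3, 3 of the 5 tested cofactors rose and 1 fell in each medium. Of all genes tested, 40.1% rose and 39.2% fell in RPMI, and 33.4% rose and 33.7% fell in hBMSC-CM.

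MEF2C, a MADS-box transcription factor of myeloid progenitors, had the highest level per length of the members and changed little between the groups. It lies on chromosome 5 (88717117 to 88904257, minus strand). In RPMI its libraries held 561, 564 and 567 CPM with vehicle and 513, 511 and 516 CPM with quizartinib. With hBMSC-CM they held 503, 509.5 and 511 CPM with vehicle and 532, 494 and 512 CPM with quizartinib. RPMI with vehicle stood above the other 3 groups. Of these, hBMSC-CM with quizartinib overlapped both others. The lowest library of RPMI with quizartinib (511.4 CPM) lay just above the highest of hBMSC-CM with vehicle (511.1 CPM). The change with quizartinib was -0.14 ± 0.04 in RPMI (edgeR adjusted p = 0.00358) and 0.01 ± 0.04 in hBMSC-CM (edgeR adjusted p = 0.761). With vehicle, hBMSC-CM also lay below RPMI (-0.15 ± 0.04, edgeR adjusted p = 0.00563), and with quizartinib the media did not differ beyond the spread (-0.00 ± 0.04, with an interval from -0.08 to 0.08). The scaling decided the calls with quizartinib: by library size alone the quizartinib change was -0.05 in RPMI, no longer called, and 0.12 in hBMSC-CM, now called. The interaction (0.15 ± 0.06, edgeR adjusted p = 0.0329) did not pass the test in 9 of 12 fits that left out 1 library, where its value ran from 0.13 to 0.15. It passed only without hBMSC-CM quizartinib replicates 2 or 3 or hBMSC-CM vehicle replicate 3. MEF2A and MEF2D, the other MEF2 genes that passed the filter, both had less RNA in hBMSC-CM when quizartinib was present (log2 -0.41 and -0.42 against RPMI). MEF2B stayed at or below 9 counts.

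KMT2A RNA rose with quizartinib in RPMI, and in hBMSC-CM it did not pass the test. The gene lies on chromosome 11 (118436456 to 118526832, plus strand), and its counts include any reads from the KMT2A part of the fusion transcript, which cannot be told apart from those of the intact gene. In RPMI its libraries held 35.8, 40.4 and 42.9 CPM with vehicle and 51.0, 56.9 and 46.6 CPM with quizartinib. In the conditioned medium they held 43.4, 35.9 and 36.9 CPM with vehicle and 30.4, 40.3 and 37.6 CPM with quizartinib. The 3 quizartinib libraries of RPMI were above the other 9, which overlapped. The increase in RPMI was 1.30-fold (log2 0.38 ± 0.09, edgeR adjusted p = 0.000828), and the change in hBMSC-CM was -0.12 ± 0.10 (edgeR adjusted p = 0.300). The 2 responses differed (interaction -0.50 ± 0.13, edgeR adjusted p = 0.00468), and between the quizartinib groups hBMSC-CM lay below RPMI (-0.52 ± 0.09, edgeR adjusted p = 5.04e-05). Both calls were kept in every fit that left out 1 library. A readthrough gene on the same strand covers 18.3% of the KMT2A exons. The fusion partner MLLT3, a reader of acylated histones, rose by 0.45 on the log2 scale in RPMI, with a change of 0.06 in hBMSC-CM that did not pass the test. MLLT3 counts likewise include any reads from the MLLT3 part of the fusion transcript, which cannot be told apart from those of the intact gene.

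MEN1, which encodes menin, fell with quizartinib in both media. It lies on chromosome 11 (64803510 to 64811294, minus strand). In RPMI its libraries held 50.3, 46.7 and 47.2 CPM with vehicle and 37.5, 37.9 and 38.5 CPM with quizartinib. The hBMSC-CM cells had 59.4, 51.9 and 54.2 CPM with vehicle and 42.5, 46.4 and 48.1 CPM with quizartinib. The vehicle libraries were above the quizartinib libraries in each medium. The log2 change of MEN1 was -0.34 ± 0.06 in RPMI (edgeR adjusted p = 2.17e-05) and -0.28 ± 0.06 in hBMSC-CM (edgeR adjusted p = 0.000264). The interaction was 0.06 ± 0.08, with an interval from -0.11 to 0.23 (edgeR adjusted p = 0.573). The level in hBMSC-CM was above that in RPMI with quizartinib (0.26 ± 0.06) and with vehicle (0.20 ± 0.06, edgeR adjusted p = 0.0106). The latter call was lost without hBMSC-CM vehicle replicate 1 (0.14), the library with the highest MEN1 level. With quizartinib in hBMSC-CM, MEN1 did not differ from vehicle in RPMI beyond the spread (-0.08 ± 0.06, edgeR adjusted p = 0.259).

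DOT1L showed the largest change of the 8 tested members with quizartinib in each medium. It lies on chromosome 19 (2163933 to 2232578, plus strand). In RPMI its libraries held 140.3, 132 and 147 CPM with vehicle and 61.8, 66.4 and 65.7 CPM with quizartinib. Libraries of hBMSC-CM held 163, 156 and 144 CPM with vehicle and 80.9, 94.9 and 97.4 CPM with quizartinib. The quizartinib groups lay below both vehicle groups and apart from each other, and the vehicle groups overlapped. DOT1L fell 2.16-fold in RPMI (log2 -1.11 ± 0.06, edgeR adjusted p = 6.90e-13) and 1.70-fold in hBMSC-CM (log2 -0.76 ± 0.06, edgeR adjusted p = 8.13e-10). By absolute log2 change it stood at the 82.3 percentile of all genes tested in RPMI and at the 86.5 percentile in hBMSC-CM. The fall was smaller in hBMSC-CM (interaction 0.35 ± 0.09, edgeR adjusted p = 0.00277), and with quizartinib the level was 1.41-fold higher there than in RPMI (log2 0.49 ± 0.06, edgeR adjusted p = 7.89e-07). It still lay below vehicle in RPMI (-0.62 ± 0.06, edgeR adjusted p = 2.17e-08). With vehicle the media did not differ beyond the spread (0.14 ± 0.06, edgeR adjusted p = 0.0763), although they did without hBMSC-CM vehicle replicate 3 (0.19) or RPMI vehicle replicate 3 (0.19).

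**Figure D2:**
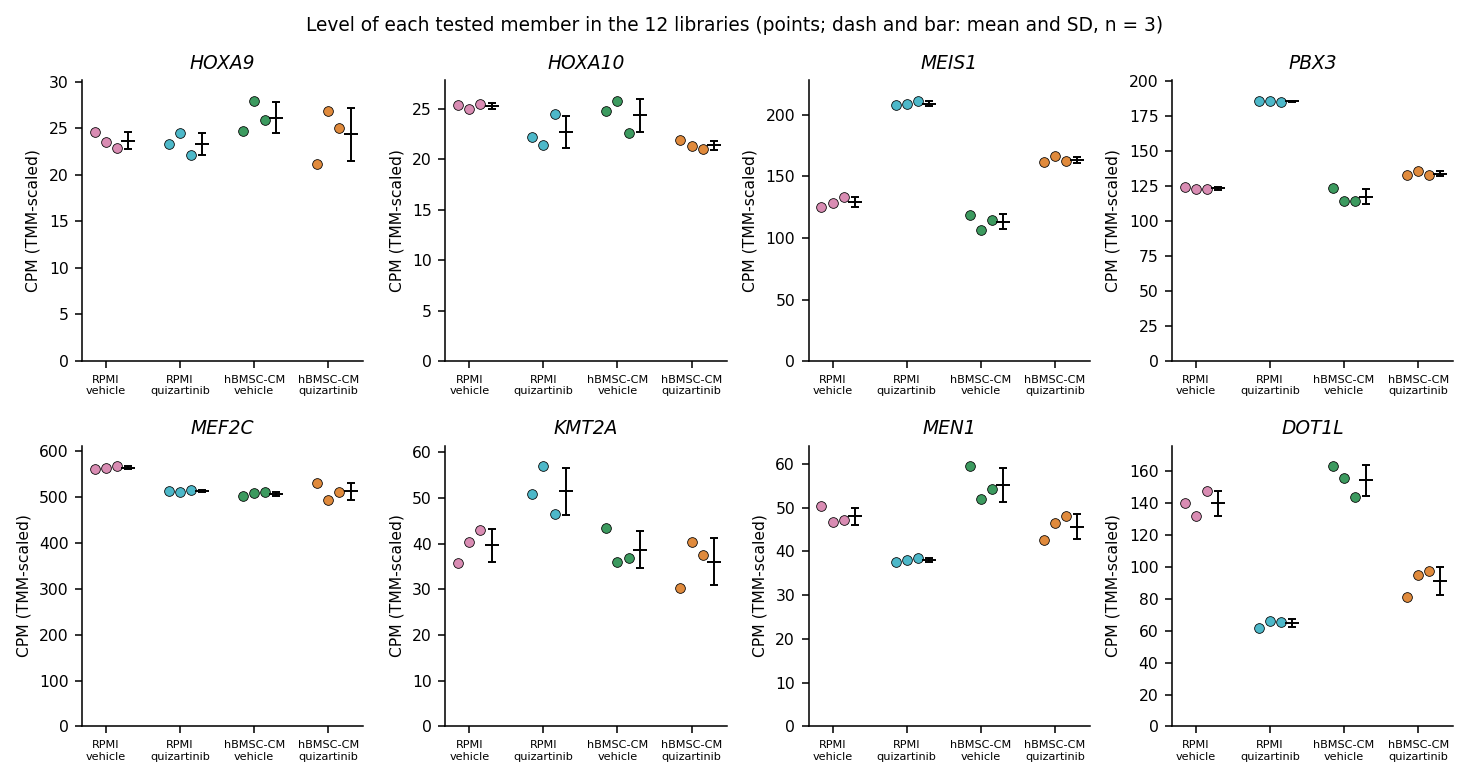
Level of the 8 tested members (CPM, linear axes from 0) in the 12 libraries, with 1 point per library, dashes for group means and bars for the SD (n = 3). MEIS1 and PBX3 are highest in RPMI with quizartinib (means 209 and 185 CPM), DOT1L is lowest there (mean 64.6 CPM), and HOXA9 overlaps between vehicle and quizartinib in each medium.

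Levels can be set against each other between genes only per length. Per kilobase of annotated exons, the group means of MEF2C were 43.2 to 48.0 CPM per kilobase, those of PBX3 24.0 to 37.8 and those of MEIS1 10.4 to 19.1. DOT1L had 5.63 to 13.4 CPM per kilobase, MEN1 7.44 to 10.8, HOXA9 7.68 to 8.62, HOXA10 5.78 to 6.82 and KMT2A 1.15 to 1.64, which is the least of the tested members. HOXA5 reached at most 0.140 CPM per kilobase and HOXA7 at most 0.0111. These lengths include bases shared with other genes, 27.0% for HOXA9, 26.3% for HOXA10 and 19.3% for KMT2A, but none for PBX3 and MEN1. The part of this sharing in the levels was not tested. DOT1L and MEIS1 changed places: in RPMI with vehicle they had 12.2 and 11.8 CPM per kilobase, and with quizartinib 5.63 and 19.1. Per kilobase of the longest transcript instead, MEIS1 was already above DOT1L in RPMI with vehicle (25.3 against 18.3).

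Counted over the 8 tested members, quizartinib in RPMI changed 7, against 79.3% of all genes tested (edgeR adjusted p under 0.05), so that the count is near the background. MEIS1, PBX3 and KMT2A were the 3 that rose, against 40.1% of all genes, and HOXA10, MEF2C, MEN1 and DOT1L the 4 that fell, against 39.2%. The vehicle and quizartinib libraries did not overlap for 7 of 8 members and for 81.1% of all genes. The median absolute log2 change of the members was 0.36, against 0.48 over all genes tested, and DOT1L was the only member changed at least 2-fold, as were 21.4% of all genes. In hBMSC-CM 5 of 8 members passed, against 67.1% of all genes. MEIS1 and PBX3 rose, against 33.4% of all genes, and HOXA10, MEN1 and DOT1L fell, against 33.7%, and 5 of 8 members had groups that did not overlap, against 68.4%. These 5 of 8 members were called in the same direction in both media, against 59.3% of all genes. The median absolute log2 change in hBMSC-CM was 0.19 for the members and 0.30 for all genes tested.

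Between the media with quizartinib, 5 of 8 members differed, against 69.8% of all genes. MEN1 and DOT1L were higher in hBMSC-CM (35.5% of all genes), and MEIS1, PBX3 and KMT2A were lower (34.3%). The groups did not overlap for 5 of 8, against 71.5% of all genes. With vehicle 3 of 8 differed, against 32.1% of all genes, with MEN1 higher (16.6% of all genes) and MEIS1 and MEF2C lower (15.5%) in hBMSC-CM. Groups did not overlap for 4 of 8, HOXA9 included, against 44.6%. Quizartinib in hBMSC-CM against vehicle in RPMI gave 5 of 8, against 62.1% of all genes, with MEIS1 and PBX3 higher (30.6%) and HOXA10, MEF2C and DOT1L lower (31.6%), and 5 of 8 without overlap (66.3%). The interaction passed for 5 of 8 members, against 45.2% of all genes, and 2 of these had a positive value (26.1% of all genes) and 3 a negative one (19.2%). Of these 5, MEIS1, PBX3 and DOT1L responded with the same sign in both media, with the smaller response in hBMSC-CM. Where the interaction did not pass, the log2 value in hBMSC-CM was smaller for MEN1 and larger for HOXA9 and HOXA10. Over all genes tested, the median absolute log2 change with quizartinib was also smaller in hBMSC-CM (0.30) than in RPMI (0.48). These comparisons share libraries, so that their values are set side by side and are not independent of each other.

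**Figure D3:**
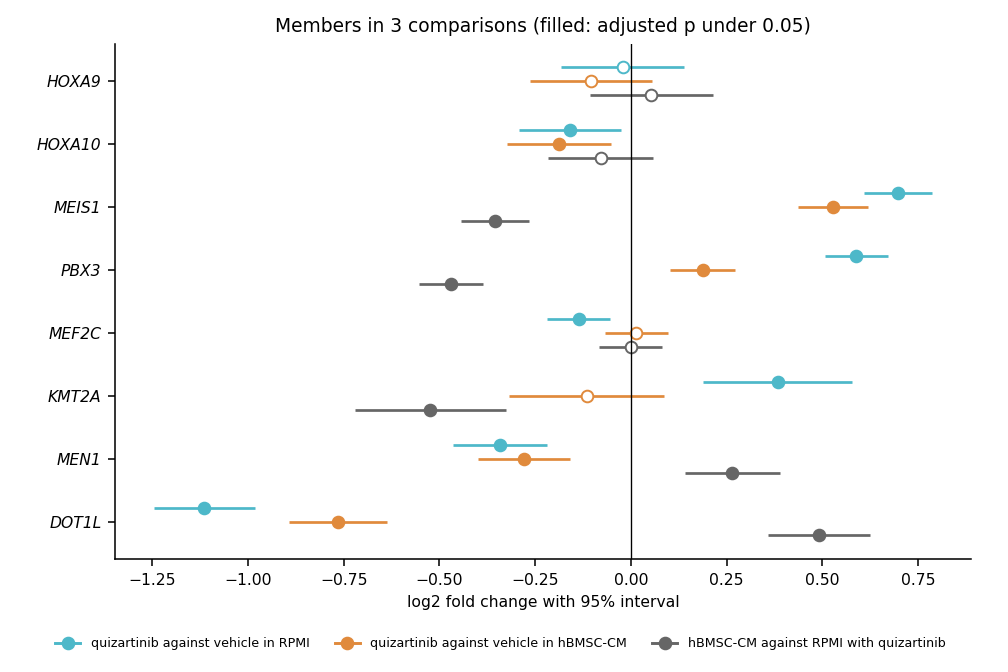
Log2 fold change of the 8 tested members with 95% intervals in 3 comparisons, with filled points where the adjusted p was under 0.05. MEIS1 and PBX3 lie to the right of 0 and DOT1L and MEN1 to the left with quizartinib in both media, whereas KMT2A has 0.38 in RPMI and -0.12 in hBMSC-CM, a difference that passed the interaction test.

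Of the partners of KMT2A and menin, WDR5, HCFC1 and PSIP1 fell with quizartinib in both media. In this and the next lists, rose and fell are written of genes with an edgeR adjusted p under 0.05, and values are log2 fold changes, first in RPMI and then in hBMSC-CM. Of 6 partners, all tested, 5 fell and none rose in each medium, where 39.2% of all genes fell in RPMI and 33.7% in hBMSC-CM, with a median log2 change of -0.38 in RPMI and -0.31 in hBMSC-CM against 0.02 and 0.01 over all genes tested. WDR5, the subunit that positions the methyltransferase on histone H3, fell by 1.60 in RPMI and by 0.65 in hBMSC-CM, and in hBMSC-CM with quizartinib it was higher by 1.03 than in RPMI. HCFC1, a cofactor of these complexes, fell by 0.75 and 0.55. PSIP1, which links menin to chromatin, fell by 0.45 and 0.41. ASH2L, a core subunit, did not pass the test with quizartinib in either medium (-0.05 and 0.03).

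The partners of DOT1L and of the elongation complexes moved in both directions. Of 16, 5 rose and 6 fell in RPMI, and 3 rose and 5 fell in hBMSC-CM, with medians of -0.08 and -0.05. Over all genes 40.1% rose and 39.2% fell in RPMI and 33.4% and 33.7% in hBMSC-CM, so that each of these counts was at or below the background. AFF4, the scaffold of the super elongation complex, rose by 0.51 and 0.30, and AFF1, a related scaffold and KMT2A fusion partner, rose by 0.38 and 0.27. MLLT1, a paralog of MLLT3, fell by 0.53 and 0.30, and CCNT1, the cyclin of the CDK9 kinase, fell by 0.45 and 0.17. With quizartinib, CCNT1 was higher by 0.45 in hBMSC-CM than in RPMI, and MLLT3 was lower by 0.45.

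Among 17 other genes reported as targets of KMT2A fusions, 16 passed the filter (EYA1 had at most 2 counts in a library), of which 9 rose and 6 fell in RPMI and 9 rose and 4 fell in hBMSC-CM. The shares over all genes were 40.1% and 39.2% in RPMI and 33.4% and 33.7% in hBMSC-CM. JMJD1C, a histone demethylase family member, rose by 1.16 and 0.78, and RUNX2, a transcription factor, rose by 1.73 and 1.18. FLT3, the target of the drug, rose by 1.12 in RPMI and 0.47 in hBMSC-CM. MYC, a growth-promoting transcription factor, fell by 3.09 in RPMI and by 0.40 in hBMSC-CM, and BCL2, an inhibitor of apoptosis, fell by 0.97 and 0.33. MYB, which like HOXA9 is a regulator of self-renewal, did not pass the test in either medium (-0.04 and 0.09). These reported targets moved in both directions in the same libraries, and whether the fusion acts on them in MOLM-13 was not tested.

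Of 10 chromatin regulators that act with the program, 3 rose and 5 fell in RPMI, and 1 rose and 6 fell in hBMSC-CM. Over all genes, 40.1% rose and 39.2% fell in RPMI, and 33.4% and 33.7% in hBMSC-CM. EZH2, the methyltransferase of the Polycomb repressive complex that silences HOX genes, fell by 1.04 in RPMI and by 0.62 in hBMSC-CM, and its partner EED fell by 0.67 and 0.51. PRMT1, an arginine methyltransferase, fell by 1.57 and 0.89. KDM2B, a histone demethylase, rose by 0.63 and 0.26.

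**Figure D4:**
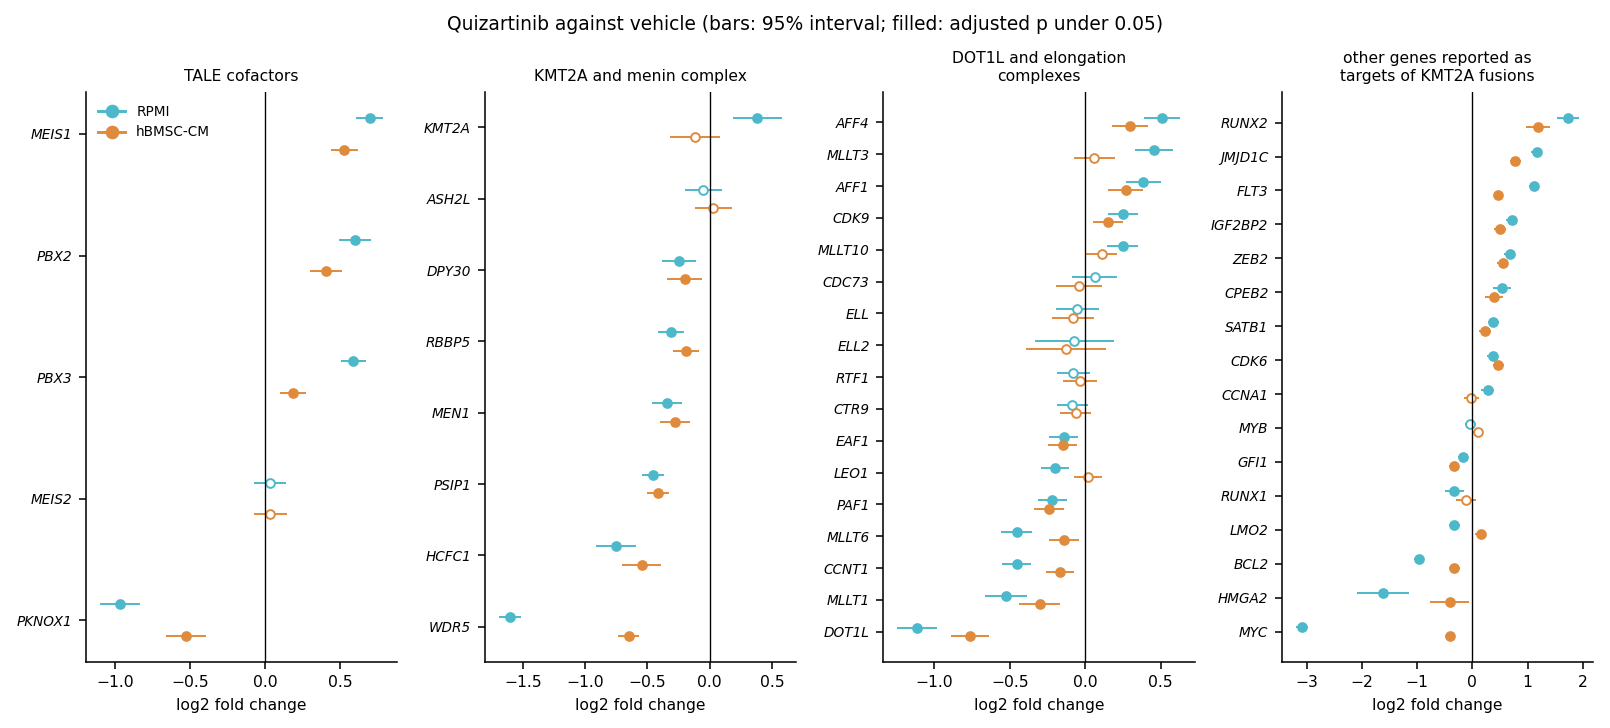
Log2 fold change with quizartinib, with 95% intervals, for the tested genes of 4 lists in RPMI and in hBMSC-CM, with filled points where the adjusted p was under 0.05 and genes sorted by the value in RPMI. Most KMT2A and menin partners lie to the left of 0, while the TALE cofactors and the other reported targets lie on both sides.

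The genes whose levels followed each member most closely were found by Pearson correlation of log2 CPM over the 12 libraries among 9280 genes of at least 10 CPM, a description in which all points share the 4 groups and the scaling. MEIS1 was followed by ZKSCAN3 (r = 0.995) and SLC35E2B (r = 0.995), and PBX3 by STARD9 (r = 0.998) and CCNI (r = 0.996). DOT1L was followed by USP39 (r = 0.993) and PHLPP2 (r = 0.993), and MEN1 by PRRC1 and RPTOR (both r = 0.972). Such values were common for the members that respond to the drug, as 859 genes exceeded 0.95 for MEIS1, 685 for PBX3 and 1017 for DOT1L. No gene exceeded 0.95 for HOXA9, HOXA10, MEF2C or KMT2A. The closest to HOXA9 were EIF3CL (r = 0.843), which has a near-identical copy, and ACBD6 (r = 0.822), those to HOXA10 EHD4 (r = 0.910) and YKT6 (r = 0.908), and those to MEF2C MICAL1 (r = 0.914) and TNFAIP8 (r = 0.914). KMT2A was followed by its paralog KMT2B (r = 0.924).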

How the data were processed

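RNA-seq was performed on 12 MOLM-13 libraries, 3 in each of 4 groups assigned from the sample labels. Per the methods and the labels, the authors made poly-A-selected, paired-end libraries, trimmed reads with BBDuk, aligned them to hg38 with STAR 2.6.0a and deposited raw read counts per gene name. The strand setting of the counting is not given in the sources used here. No column of the table was left unused (0).

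As in the authors' own filter, a gene had to average 1 raw count and 1 CPM over the libraries. TMM scaling and the quasi-likelihood test of edgeR 4.0.16 (R 4.3.3) were applied with 1 model of 4 group means and 8 residual degrees of freedom. Two-sided p-values were adjusted with Benjamini-Hochberg over 12998 genes, with a threshold of 0.05. This replaced limma, which the authors used, as the main test. The contrasts compared the groups pairwise and tested the interaction. RPMI with quizartinib was not tested against hBMSC-CM with vehicle. The test was checked on simulated counts. CPM values were scaled with TMM, and log2 CPM used a prior count of 2. Exact 95% intervals for summed counts cover counting error only.

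Libraries held 19966546 to 31546104 counts, which sets the precision of HOXA5 and HOXA7. Replicate pairs of a group differed by more than sampling noise (chi-square of 2.66 to 10.5 per gene), so that none was taken as a duplicate. Gene positions and exon overlaps came from GENCODE on GRCh38, in a later release than the Ensembl annotation the authors counted with. Among protein-coding genes, 28.0% of the 10035 without overlap had no count. That share was 76.5% of the 68 with over 95% of their exons shared on the same strand alone. It was 16.1% of the 149 with over 50% to 95% covered on the opposite strand alone, the class of HOXA7. Promoter sequences were taken from RefSeq (GRCh38.p14).

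The members and lists were chosen with earlier results of these data known. Named genes were the 10 members, and per list and comparison the 2 other genes with the largest increase and the 2 with the largest decrease among those called with groups that did not overlap, plus single genes of a list named for a small count. For likeness, the 2 genes with the highest correlation were named. A few genes that belong to these lists or to this rule are not reported here. Alternatives were other scalings, DESeq2 1.42.0, limma 3.58.1 (voom), other filters, a threshold of 0.01, a fit of the groups compared alone, a replicate block and leaving out each library. Experiments of the study other than these 12 libraries were not analysed here.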

Additional observations from a re-analysis of the deposited data

Results flagged for a closer look

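The response to quizartinib differed between hBMSC-CM and RPMI, by the interaction term of the edgeR quasi-likelihood fit (adjusted p under 0.05 over all genes), for 5 of the 8 tested members and for 20 of the 37 other named genes. A negative value means a lower log2 response in hBMSC-CM. Among the members the interaction was -0.50 for KMT2A, -0.40 for PBX3, -0.17 for MEIS1, 0.15 for MEF2C and 0.35 for DOT1L. For KMT2A, PBX3 and DOT1L it passed the test in all 12 fits that left out 1 library, for MEIS1 in 7 and for MEF2C in 3.

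Of the other named genes, 9 had a negative value. These were FLT3 (-0.65), RUNX2 (-0.55), MLLT3 (-0.39), JMJD1C (-0.38), KDM2B (-0.37), CCNA1 (-0.30), AFF4 (-0.21), MEF2A (-0.20) and PBX2 (-0.20). The 11 with a positive value were CCNT1 (0.29), MLLT6 (0.31), HOXA11 (0.34), SUZ12 (0.34), EZH2 (0.42), PKNOX1 (0.44), BCL2 (0.64), PRMT1 (0.68), WDR5 (0.96), HMGA2 (1.22) and MYC (2.68). Over all genes tested 45.2% passed the same test. Since these other genes were named for large changes in the comparisons from which the interaction is formed, their count is not read against that share.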

How the results depend on the processing

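Over 808 values of the members under the alternatives, 759 kept their side of the threshold (19 of them changed sign while called in neither fit), 42 were no longer called, 7 became called and 0 called values reversed. MEIS1, PBX3 and DOT1L kept their quizartinib calls in both media under every alternative. Their log2 changes in RPMI were 0.59 to 0.80, 0.49 to 0.69 and -1.22 to -1.01, the fits that left out 1 library aside. The quizartinib calls of HOXA10 were lost in both media with library size only, upper-quartile factors, a mean CPM of at least 5 and an adjusted p under 0.01. Those of MEF2C depended on the scaling. HDAC3, not called with quizartinib in hBMSC-CM (-0.01), was 0.10 and called with library size only. KMT2A in hBMSC-CM with quizartinib against RPMI with vehicle was called without the filter (-0.16), and DOT1L between the media with vehicle was called without the filter (0.15) and with only the groups compared (0.14). The cause of these changes was not tested.

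Between the media with vehicle, 2692 genes were called at an adjusted p under 0.01 and 4174 at 0.05. The interaction was called for 3 members at 0.01 and for 5 at 0.05, and for 3 to 5 in fits that left out 1 library. The lower count came without hBMSC-CM quizartinib replicate 1, hBMSC-CM vehicle replicate 1, or RPMI vehicle replicates 1 or 2. Library size only moved the median of all genes by 0.10 (log2) for quizartinib in hBMSC-CM and the share of higher calls from 49.8% to 62.8%, and upper-quartile factors moved that share to 60.0%. For quizartinib in hBMSC-CM against vehicle in RPMI, library size only moved it from 49.2% to 62.1%. In RPMI, upper-quartile factors moved the median by 0.10. The share of higher calls fell between the media with vehicle from 51.8% to 45.7% by library size only and 42.1% with upper-quartile factors, which also moved it from 50.8% to 45.7% between the media with quizartinib.

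Same-numbered libraries did not deviate together (correlations of -0.23 to 0.10, and 0 of 12 libraries closest to their own number), so the numbers were not taken as pairs. With a replicate block 10224 genes were called for quizartinib in RPMI and 8611 in hBMSC-CM, and the members called were 7 and 5, as without it. Depth limits HOXA5, whose ratios rest on at most 9 counts in a library, and HOXA7, for which no fold was formed.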
